A study of Mus musculus with 16 samples.

Results

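The genes described here are 27 genes of cholesterol synthesis and its control by SREBP2, chosen by symbol from the 55421 gene IDs of a bulk RNA-seq count table of mouse liver. All 27 were counted and all passed the filter of at least 10 reads in total, which left 23018 genes for testing. They fall into 6 roles: 5 genes of the mevalonate pathway, 3 of the isoprenoid steps, 3 that take squalene to lanosterol, 9 that take lanosterol to cholesterol, 4 that sense sterols, and 3 of transport, storage and side routes. The list is not a complete catalogue of the pathway.

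The 16 libraries came from male C57BL/6 mice, 4 libraries in each of 4 groups: control and HIRA KO liver, each before and after regeneration. HIRA is a chaperone that deposits histone H3.3. HIRA KO mice were either HIRA fl/fl mice given AAV8-Tbg-Cre or wildtype mice given AAV8-Tbg-saCas9 with sgRNA-HIRA, and control mice were wildtype mice given AAV8-Tbg-Cre or AAV8-Tbg-saCas9 with sgRNA-Rosa26. All groups therefore carried AAV8 and the Tbg promoter, which is active in hepatocytes, so other liver cells kept the gene. Mice were 6 months old when injected, and 4 weeks later they had a partial hepatectomy. The resected lobes gave the libraries before regeneration, and the liver that remained gave those after regeneration, from the same mice, taken 5 days after surgery when the mice were killed. Time, lobe and mode of collection therefore cannot be told apart. Libraries are named here by group and by the number, 1 to 4, in the column name of the count table. That number is in no sample label, so a library could not be tied to a mouse or to the Cre or Cas9 approach, and the same number before and after does not mark a pair.

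Cholesterol is built from acetyl-CoA by way of mevalonate, isoprenoid diphosphates, squalene and lanosterol. SREBP2 is held in the endoplasmic reticulum with its escort SCAP by the INSIG proteins. When membrane cholesterol falls, SCAP carries SREBP2 to the Golgi, where it is cut, and the released part enters the nucleus and switches on genes of the pathway together with NF-Y and Sp1. The liver is a main site of this synthesis.

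Library totals ran from 15103059 to 21738619 counts, and member counts from 110 to 16487 per library. Hira itself lay between 5.21 and 6.18 CPM, the count scaled to a common library size, in control and 3.13 and 4.38 CPM in HIRA KO before resection, and between 4.99 and 6.29 CPM and 3.04 and 4.56 CPM after regeneration, with no overlap at either time. On the second principal component of 13176 genes, which carried 26.5% of the variance, 4 HIRA KO libraries stood apart from the rest: libraries 1 and 2 before resection and libraries 1 and 2 after regeneration. Their scores lay between -47.4 and -36.2, against -1.14 to 31.2 for the other 12. Counts of called members by edgeR are given below with and without these 4 libraries. The labels put 2 mice of each deletion approach in every group. Within the HIRA KO groups the chi-square per degree of freedom between libraries was 17.2 for 1 against 2 and 12.4 for 3 against 4 before resection, and 71.9 to 93.7 for the other pairs. After regeneration it was 45.3 and 18.1, and 116 to 135 for the other pairs. Whether this division is that of the approaches was not tested, since no label ties a column to one. All 8 hepatocyte markers were detected in every group. In bulk tissue, fewer cells of a type and less RNA per cell cannot be told apart.

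On the per-length scale of the deposited FPKM values, the mean level in control liver before resection was highest for Sc5d, the lathosterol oxidase, at 232 ± 35.6 FPKM (SD, n = 4). Fdps, farnesyl diphosphate synthase, followed at 187 ± 24.1 FPKM, and Ebp, the sterol isomerase, at 177 ± 14.3 FPKM. The ranges of these 3 genes partly overlapped over the 4 libraries, from 201 to 282, 165 to 217 and 164 to 192 FPKM. Srebf2, which encodes SREBP2, stood at 14.4 ± 1.49 FPKM. The lowest levels were those of Ggps1, which makes geranylgeranyl diphosphate on a branch off the sterol route, at 3.76 ± 0.601 FPKM, and of Lbr, a sterol C14 reductase that is also a lamin receptor, at 2.98 ± 0.254 FPKM. Mvd had no FPKM value in any library although it was counted in all 16, so its per-length level is not given.

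RefSeq (GRCm38.p6) promoter windows of 300 bases, from 250 before to 50 after a transcript start, were at hand for 22 of the 27 members. Windows were searched on both strands for CCAAT, the core letters bound by NF-Y, for TCACNCCAC, a form of the sterol regulatory element, for the Sp1 letters GGGCGG and for the E-box letters CACGTG, which some other factors bind. The letters CCAAT stood in a window of 19 of the 22 members (86.4%), against 42% of the 13467 tested genes with a window and 41.1% of all 27025 genes with a window. GGGCGG also stood in 19 of 22, against 60.4% of tested genes and 38.2% of all. CACGTG stood in 5 of 22 members (22.7%), against 10.6% of tested genes and 8.09% of all. TCACNCCAC stood in 1 member, Hmgcs1, and in 1.44% of all genes. A match describes letters in the window only, and says nothing on binding. The windows below belong to members whose values are given in full further on. CCAAT, or its complement ATTGG, and TCACNCCAC are in capitals, and neither overlaps the other. Hmgcs1 shows both motifs, Idi1, Hsd17b7, Tm7sf2 and Insig1 show CCAAT alone, and Dhcr7 is shown at the start nearest the gene's 5′ end, which has neither, and at a start further downstream, which has CCAAT.
Hmgcs1, chr13:119690101-119690400 (+): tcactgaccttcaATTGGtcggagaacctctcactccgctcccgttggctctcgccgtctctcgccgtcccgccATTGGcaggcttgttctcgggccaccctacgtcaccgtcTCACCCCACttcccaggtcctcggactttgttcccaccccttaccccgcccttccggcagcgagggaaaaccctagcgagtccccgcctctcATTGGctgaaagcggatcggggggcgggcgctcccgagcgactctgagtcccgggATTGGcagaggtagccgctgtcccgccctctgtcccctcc
Idi1, chr13:8885356-8885655 (+): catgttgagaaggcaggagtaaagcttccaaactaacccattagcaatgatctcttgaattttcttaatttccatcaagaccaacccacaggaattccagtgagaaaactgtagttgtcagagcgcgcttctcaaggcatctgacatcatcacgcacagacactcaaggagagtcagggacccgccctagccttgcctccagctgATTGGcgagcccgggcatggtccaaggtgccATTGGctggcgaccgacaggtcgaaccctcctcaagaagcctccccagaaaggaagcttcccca
Hsd17b7, chr1:169969156-169969455 (-): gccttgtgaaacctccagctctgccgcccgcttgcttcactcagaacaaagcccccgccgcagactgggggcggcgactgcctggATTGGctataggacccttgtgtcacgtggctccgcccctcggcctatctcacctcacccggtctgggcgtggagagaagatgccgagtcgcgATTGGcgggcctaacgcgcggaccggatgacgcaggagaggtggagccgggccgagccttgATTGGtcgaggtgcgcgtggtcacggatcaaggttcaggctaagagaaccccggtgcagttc
Tm7sf2, chr19:6067801-6068100 (-): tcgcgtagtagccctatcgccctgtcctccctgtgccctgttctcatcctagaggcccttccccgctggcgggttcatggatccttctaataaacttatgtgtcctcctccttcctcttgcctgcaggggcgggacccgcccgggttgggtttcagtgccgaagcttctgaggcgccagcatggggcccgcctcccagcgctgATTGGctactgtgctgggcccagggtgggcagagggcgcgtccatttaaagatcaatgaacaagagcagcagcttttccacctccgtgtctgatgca
Insig1, chr5:28071162-28071461 (+): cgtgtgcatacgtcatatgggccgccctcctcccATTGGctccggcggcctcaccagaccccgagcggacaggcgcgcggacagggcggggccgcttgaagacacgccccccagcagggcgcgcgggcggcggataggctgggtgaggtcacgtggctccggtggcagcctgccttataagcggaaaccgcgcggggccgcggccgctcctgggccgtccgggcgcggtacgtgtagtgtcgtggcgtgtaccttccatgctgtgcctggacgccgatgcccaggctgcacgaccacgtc
Dhcr7, first start, chr7:143822917-143823216 (+): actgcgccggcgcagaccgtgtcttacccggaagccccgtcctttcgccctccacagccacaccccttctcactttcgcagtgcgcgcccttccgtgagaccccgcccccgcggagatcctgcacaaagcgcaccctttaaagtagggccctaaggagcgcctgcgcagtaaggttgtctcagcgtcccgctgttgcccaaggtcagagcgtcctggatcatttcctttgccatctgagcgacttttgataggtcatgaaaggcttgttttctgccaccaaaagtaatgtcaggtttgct
Dhcr7, downstream start, chr7:143829964-143830263 (+): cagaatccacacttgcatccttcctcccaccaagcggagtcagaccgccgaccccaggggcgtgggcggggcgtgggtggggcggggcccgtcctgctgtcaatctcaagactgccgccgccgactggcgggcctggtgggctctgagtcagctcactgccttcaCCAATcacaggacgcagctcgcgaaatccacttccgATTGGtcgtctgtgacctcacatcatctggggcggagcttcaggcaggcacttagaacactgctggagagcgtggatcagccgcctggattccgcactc

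Before resection, the question was whether these genes differ between HIRA KO and control liver. None of the 27 was called at an adjusted p under 0.05 by edgeR's quasi-likelihood test, where 0.0391% of all tested genes were. At an unadjusted p under 0.05 there were 4 members, Scap, Srebf2 and Tm7sf2 with lower values and Insig1 with higher values in HIRA KO, where 13.2% of all genes were, and DESeq2 called 0 members as well. The median log2 fold change of the members was -0.19, against 0.009 over all genes, and 21 of 27 were negative. Without the 4 libraries that stood apart the median was 0.09, on the other side of 0, again with 0 members called. In 2 members, Srebf2 and Scap, all 4 HIRA KO libraries were below all 4 control libraries, which held for 4.53% of all genes. Lss was above control in all 4, and the share of all genes above control in this way was not computed.

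The HIRA KO libraries before resection did not form a single level. Library 1 was below all 4 control libraries in 19 of 27 members and library 2 in 18, while libraries 3 and 4 were below in 4 and 2. The shares over all genes were 24.6%, 24.5%, 19.4% and 16.8% in libraries 1 to 4. The median member stood at 64.1% and 63.5% of the control mean in libraries 1 and 2, and at 103% and 109% in libraries 3 and 4. In 21 members both libraries 1 and 2 were below both libraries 3 and 4, and the opposite order was seen in 0 members. The share of all genes in that order was not computed. Libraries 1 and 2 had been set apart by a principal component over many genes, the members among them. The order of libraries 1 and 2 against 3 and 4 is therefore not independent of that grouping. Whether these counts are particular to the members was not tested.

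**Figure D1:**
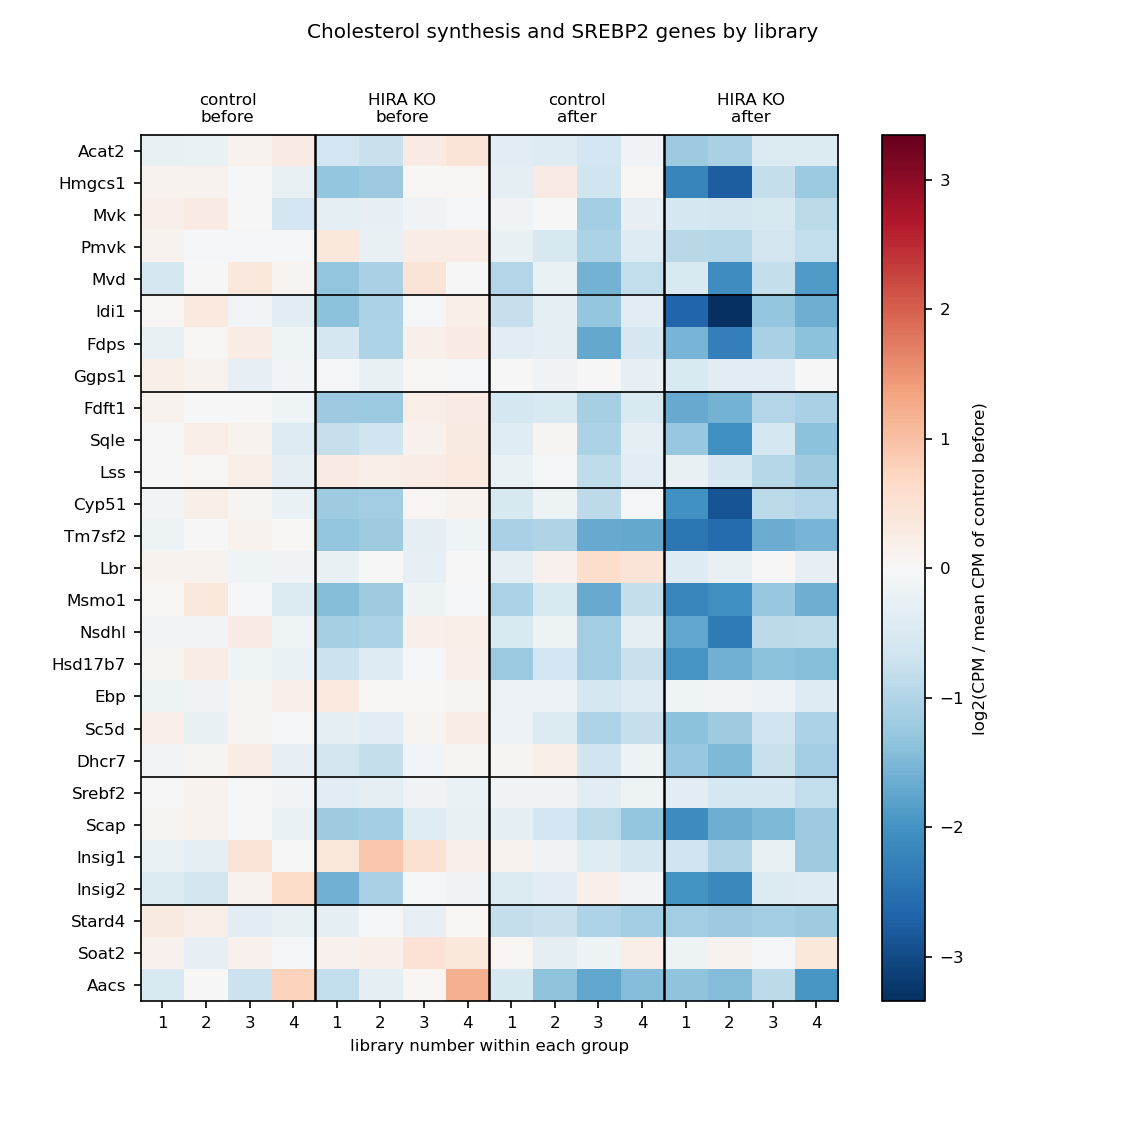
Heat map of the 27 members (rows, grouped by role with horizontal lines) in the 16 libraries (columns, numbered within each group), coloured by log2 of CPM over the mean CPM of the 4 control libraries before resection. HIRA KO libraries 1 and 2 are blue in most rows before resection, with Insig1, Lss and Soat2 among the exceptions. After regeneration the libraries of both genotypes are blue in most rows.

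Markers of some other liver cells, and mitosis genes, were higher in HIRA KO libraries 1 and 2 before resection. The summed level of 6 hepatic stellate cell markers was 521 and 414 CPM in HIRA KO libraries 1 and 2 before resection, against 219 and 229 CPM in libraries 3 and 4 and 192 to 214 CPM in control. That of 5 cholangiocyte markers was 143 and 97 CPM, against 57.5 and 73.7 CPM and 47.7 to 72.4 CPM. That of 8 mitosis genes was 21.9 and 15.5 CPM, against 5.64 and 6.14 CPM and 4.38 to 10.9 CPM. The T and NK cell sum, 4.07 and 3.47 CPM, and the B cell sum, 8.78 and 4.73 CPM, were also above every control library. The Kupffer cell sum was 331 and 324 CPM in libraries 1 and 2, against 185 to 449 CPM in control. Its marker Cd74 was above every control library in both, at 145 and 152 CPM against 48.1 to 102 CPM. The endothelial sum was 146 and 175 CPM, against 163 to 206 CPM in control. Its markers went both ways, with Lyve1 at 16.1 and 19.4 CPM against 8.5 to 13.9 CPM, and Clec4g at 36.2 and 37 CPM against 42.5 to 55 CPM. No gene of these lists passed the test between HIRA KO and control. The part of these cells in the member values was not tested. Of 8 hepatocyte markers, 4 (Alb, Ttr, Cps1 and Ass1) were above and 4 (Apoa1, Apoe, Serpina1a and Hnf4a) below every control library in both libraries 1 and 2, and the mean log2(CPM + 1) of the list was 12.4 and 12.3, against 12.3 to 12.4 in control. Libraries 3 and 4 had 1 and 2 of the 8 above and 4 and 1 below.

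After regeneration, the median log2 fold change was -0.51, against 0.022 over all genes, and 25 of 27 members were negative, the exceptions being Ebp at 0.13 and Soat2 at 0.11. A single member, Dhcr7, passed the adjusted threshold, which 0.291% of all genes did in the same direction. At an unadjusted p under 0.05 there were 15 members, all lower in HIRA KO, where 8.02% of all genes were lower at that level. In 5 members, Hmgcs1, Idi1, Cyp51, Hsd17b7 and Dhcr7, all 4 HIRA KO libraries were below all 4 control libraries, which held for 4.45% of all genes. DESeq2 called 6 members lower, namely Hmgcs1, Idi1, Hsd17b7, Dhcr7, Srebf2 and Scap, and 2.73% of the 15354 genes to which it gave an adjusted p.

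Each HIRA KO library after regeneration had members below all 4 control libraries, 17, 20, 9 and 13 of 27 in libraries 1 to 4, where the shares over all genes were 26%, 26.2%, 20.8% and 18.8%. The median member stood at 56%, 57.9%, 81.5% and 69.5% of the control mean. Libraries 1 and 2, which stood apart, were both below libraries 3 and 4 in 16 members and both above in 2, Lss and Ebp. No share over all genes was computed for these orders either, and they too are not independent of the grouping by the principal component. Without the 4 libraries that stood apart the median log2 fold change was -0.36, 0 members were called and 9 had an unadjusted p under 0.05, as had 11.2% of all genes. In the control group, library 3 was the lowest of the 4 in 18 members and had a median of 72.6% of the control mean. The stellate sum was 439, 347, 290 and 364 CPM in HIRA KO and 290, 310, 157 and 378 CPM in control, so the groups overlapped.

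Between resection and regeneration, members were lower at the later time in both genotypes. In control liver 4 of 27 members were called lower after regeneration and 0 higher, where 4.17% of all genes were called lower, and the median log2 fold change was -0.39 with 26 of 27 negative. In HIRA KO liver 14 of 27 were called lower and 0 higher, where 5.53% of all genes were called lower, and the median was -0.99 with all 27 negative. All 4 libraries after regeneration were below all 4 before in 11 members in control and in 12 members in HIRA KO, which held for 8.98% and 7.45% of all genes. Pmvk, Tm7sf2, Hsd17b7 and Stard4 were called in both genotypes. Without the 4 libraries that stood apart 9 members were called lower in control and 17 in HIRA KO, where 8.35% and 4.36% of all genes were, with medians of -0.39 and -1.01. In HIRA KO the count was 7 when library 3 or 4 before resection or library 2 after regeneration was left out, and 8 without library 1 after regeneration. The test of the difference itself, the interaction of genotype and time, called 0 of 27 members and 0% of all genes, with 4 members, and 6.81% of all genes, at an unadjusted p under 0.05 and 0 members called by DESeq2. The median interaction was -0.36, against -0.016 over all genes. The larger count in HIRA KO is thus not shown to differ from control for any member.

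**Figure D2:**
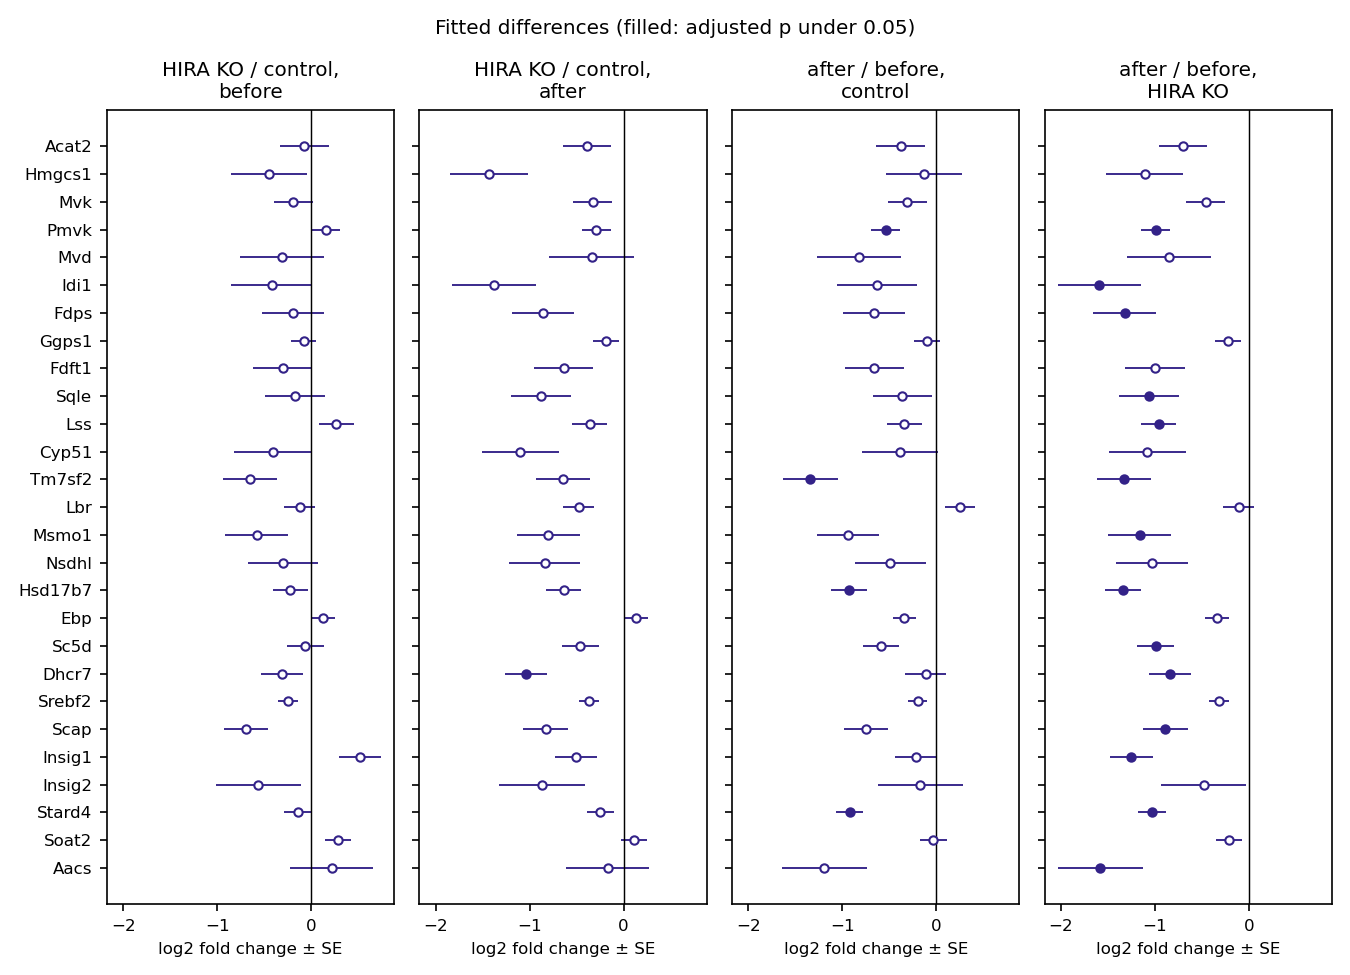
Log2 fold change with its standard error for each of the 27 members in 4 comparisons, fitted by edgeR to the 16 libraries. Filled points passed an adjusted p under 0.05: 0 before resection and 1 (Dhcr7) after regeneration between HIRA KO and control, 4 over time in control and 14 over time in HIRA KO, all to the left of 0.

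In the mevalonate pathway, Hmgcs1, the cytosolic HMG-CoA synthase (chr13:119690379-119708260), read 377, 378, 349 and 297 CPM in the control libraries and 144, 152, 363 and 365 CPM in the HIRA KO libraries before resection. Its libraries read 282, 422, 220 and 360 CPM in the control libraries and 75.2, 51.4, 201 and 148 CPM in the HIRA KO libraries after regeneration. At both times HIRA KO libraries 1 and 2 were below every control library, and libraries 3 and 4 lay within the control range before resection and below it after regeneration. The log2 fold change between HIRA KO and control was -0.45 ± 0.407 (SE, adjusted p = 0.679) before and -1.43 ± 0.414 (SE, adjusted p = 0.117) after. Pmvk, phosphomevalonate kinase, read 58.5, 52.2, 52.4 and 52.6 CPM in the control libraries and 68.6, 45.2, 64.5 and 63.5 CPM in the HIRA KO libraries before resection. It read 45, 37.5, 25.9 and 40.2 CPM in the control libraries and 28.1, 27.7, 35.4 and 30.6 CPM in the HIRA KO libraries after regeneration. All libraries after regeneration were below all libraries before resection of the same genotype, by -0.54 ± 0.152 (SE, adjusted p = 0.0304) in control and -0.99 ± 0.153 (SE, adjusted p = 7.09e-04) in HIRA KO. Leaving out each library in turn, the call in control held in 2 of 8 fits, and all 8 fits kept that in HIRA KO. The other members of this role, Acat2, Mvk and Mvd, did not pass in any comparison, with log2 fold changes from -0.39 to -0.33 between HIRA KO and control after regeneration.

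At the isoprenoid steps, Idi1, the isomerase of isopentenyl diphosphate, read 50.6, 62, 46.8 and 38.9 CPM in the control libraries and 19.2, 23.6, 48.1 and 57.2 CPM in the HIRA KO libraries before resection. It read 29.3, 40.5, 20.4 and 37.8 CPM in the control libraries and 7.93, 4.88, 20.3 and 16.1 CPM in the HIRA KO libraries after regeneration. The genotypes did not overlap after regeneration, with 20.4 CPM in the lowest control and 20.3 CPM in the highest HIRA KO library. Its fall over time in HIRA KO was -1.59 ± 0.444 (SE, adjusted p = 0.0344), a call kept in 4 of 8 fits that leave out 1 library, and the value in control was -0.63 ± 0.429 (SE, adjusted p = 0.423). Fdps read 104, 129, 147 and 111 CPM in the control libraries and 83.5, 60.2, 137 and 149 CPM in the HIRA KO libraries before resection. It read 93.8, 97.4, 37.7 and 82.9 CPM in the control libraries and 41.6, 25.3, 57.8 and 47.2 CPM in the HIRA KO libraries after regeneration. Its libraries after regeneration were below all those before in both genotypes, with -0.66 ± 0.331 (SE, adjusted p = 0.252) in control and -1.32 ± 0.336 (SE, adjusted p = 0.0207) in HIRA KO, the latter called in 4 of 8 fits that leave out 1 library. Ggps1, on the branch that serves protein prenylation, read 12, 11.4, 8.7 and 9.83 CPM in the control libraries and 10, 8.87, 10.7 and 10.1 CPM in the HIRA KO libraries before resection. It read 10.3, 9.74, 10.4 and 8.59 CPM in the control libraries and 7.34, 8.22, 8.25 and 10.4 CPM in the HIRA KO libraries after regeneration. Ggps1 overlapped in every comparison, and its log2 fold change between HIRA KO and control after regeneration was -0.19 ± 0.136 (SE, adjusted p = 0.531).

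**Figure D3:**
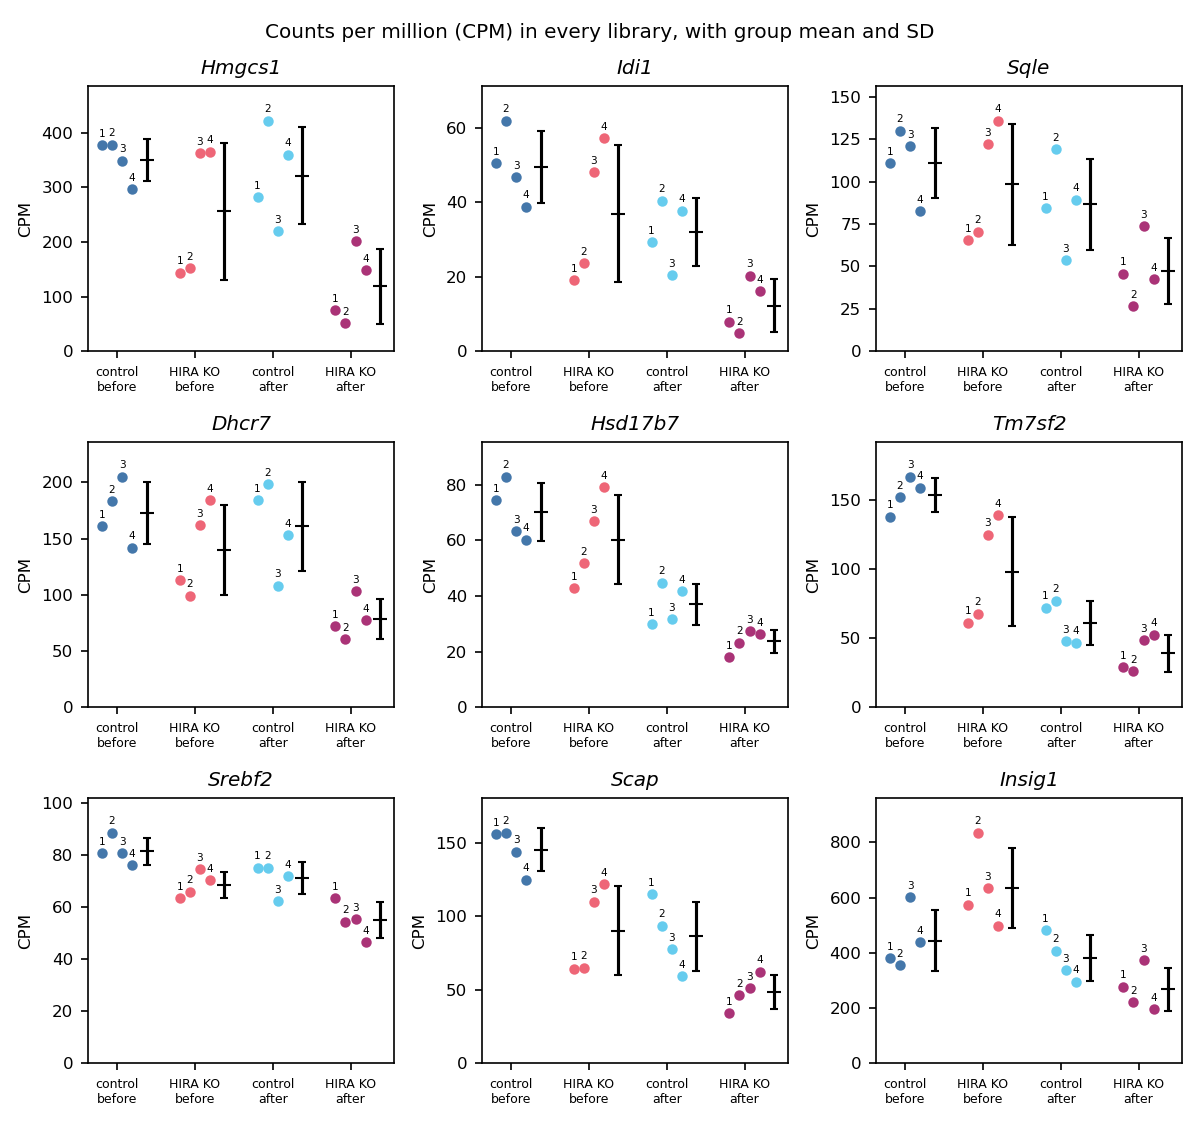
CPM of 9 members in every library, with the library number above each point, and the mean and SD of the 4 libraries of each group as a black bar. Hmgcs1 has a mean of 321 CPM in control and 119 CPM in HIRA KO after regeneration, and Insig1 is the panel in which HIRA KO before resection has the highest mean, 635 CPM.

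Between squalene and lanosterol, Sqle, the squalene epoxidase and a rate-limiting enzyme of the route, read 111, 130, 121 and 82.6 CPM in the control libraries and 65.7, 70.6, 122 and 136 CPM in the HIRA KO libraries before resection. It read 84.4, 119, 53.6 and 89.4 CPM in the control libraries and 45.8, 26.6, 73.7 and 42.7 CPM in the HIRA KO libraries after regeneration. HIRA KO libraries 1 and 2 were the lowest of the 8 before resection, and the genotypes overlapped after regeneration through control library 3. Its fall over time in HIRA KO was -1.06 ± 0.321 (SE, adjusted p = 0.0447), a call kept in 3 of 8 fits that leave out 1 library. Lss, lanosterol synthase, read 78.5, 81.9, 91.2 and 64.5 CPM in the control libraries and 96.3, 92.2, 93.1 and 98.5 CPM in the HIRA KO libraries before resection. It read 68.3, 77.4, 43.7 and 60.9 CPM in the control libraries and 66.1, 53.9, 41.1 and 34.4 CPM in the HIRA KO libraries after regeneration. Lss was the member above control in all 4 HIRA KO libraries before resection, where the difference was 0.27 ± 0.184 (SE, adjusted p = 0.564), and it fell over time in HIRA KO by 0.96 ± 0.186 (SE, adjusted p = 0.00333) on the log2 scale. Fdft1, squalene synthase, passed in no comparison, with -1 ± 0.316 (SE, adjusted p = 0.0532) over time in HIRA KO.

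Among the 9 enzymes from lanosterol to cholesterol, Dhcr7, the 7-dehydrocholesterol reductase that ends one branch (chr7:143823145-143848410), read 161, 183, 205 and 142 CPM in the control libraries and 113, 99.2, 162 and 184 CPM in the HIRA KO libraries before resection. It read 184, 198, 108 and 153 CPM in the control libraries and 72, 60.6, 103 and 77.2 CPM in the HIRA KO libraries after regeneration. The control and HIRA KO libraries after regeneration did not overlap, with 108 CPM in the lowest control and 103 CPM in the highest HIRA KO library. The difference after regeneration was -1.04 ± 0.221 (SE, adjusted p = 0.0464), with an exact permutation p of 0.0286, the smallest that 4 against 4 can give. The call held in 1 of 8 fits that leave out 1 library, that without HIRA KO library 3, and without the 4 libraries that stood apart the difference was -0.82 with an adjusted p of 0.207 by edgeR. Over time in HIRA KO it fell, -0.84 ± 0.22 (SE, adjusted p = 0.0206), a call kept in 4 of 8 such fits. Tm7sf2, a sterol C14 reductase, read 138, 152, 167 and 159 CPM in the control libraries and 61.3, 67.7, 125 and 139 CPM in the HIRA KO libraries before resection. It read 72.1, 77.1, 48.1 and 46.7 CPM in the control libraries and 28.9, 26, 48.4 and 52.6 CPM in the HIRA KO libraries after regeneration. All libraries after regeneration were below all before in each genotype. It fell over time in both, -1.34 ± 0.289 (SE, adjusted p = 0.00865) in control and -1.33 ± 0.29 (SE, adjusted p = 0.00889) in HIRA KO, with an interaction of 0 ± 0.413 (SE, adjusted p = 1).

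Hsd17b7, the 3-keto sterol reductase, read 74.5, 82.9, 63.4 and 60.3 CPM in the control libraries and 42.8, 51.9, 67 and 79 CPM in the HIRA KO libraries before resection. It read 29.8, 44.8, 31.6 and 41.8 CPM in the control libraries and 18, 23.2, 27.4 and 26.2 CPM in the HIRA KO libraries after regeneration. The HIRA KO libraries after regeneration were the 4 lowest of the 16. Its fall over time was called in all 8 fits that leave out 1 library in each genotype, -0.93 ± 0.189 (SE, adjusted p = 0.00502) in control and -1.34 ± 0.192 (SE, adjusted p = 4.85e-04) in HIRA KO. Msmo1, the sterol C4 methyl oxidase, read 189, 227, 170 and 131 CPM in the control libraries and 65.8, 78.6, 160 and 175 CPM in the HIRA KO libraries before resection. It read 86.8, 126, 55.6 and 104 CPM in the control libraries and 39.2, 43.1, 74.3 and 57.3 CPM in the HIRA KO libraries after regeneration. Its fall in HIRA KO, -1.16 ± 0.335 (SE, adjusted p = 0.0366), was kept in 3 of 8 such fits, and in control the difference was -0.94 ± 0.332 (SE, adjusted p = 0.0904). Sc5d read 820, 614, 778 and 710 CPM in the control libraries and 584, 564, 778 and 868 CPM in the HIRA KO libraries before resection. It read 633, 519, 360 and 430 CPM in the control libraries and 282, 320, 458 and 349 CPM in the HIRA KO libraries after regeneration. The HIRA KO groups did not overlap over time, and the fall was -0.99 ± 0.197 (SE, adjusted p = 0.00388). The remaining members of this role were not called. Cyp51, the lanosterol demethylase, stood at -1.1 ± 0.409 (SE, adjusted p = 0.209) and Nsdhl at -0.84 ± 0.38 (SE, adjusted p = 0.299) between HIRA KO and control after regeneration. Ebp stood at 0.13 ± 0.126 (SE, adjusted p = 0.662) there, and Lbr had the highest value over time in control, 0.25 ± 0.162 (SE, adjusted p = 0.379).

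Of the sterol sensors, Srebf2 (chr15:82147181-82205379) read 80.7, 88.5, 80.5 and 76 CPM in the control libraries and 63.3, 65.8, 74.4 and 70.2 CPM in the HIRA KO libraries before resection. It read 75, 75, 62.1 and 71.8 CPM in the control libraries and 63.4, 54.3, 55.4 and 46.4 CPM in the HIRA KO libraries after regeneration. The genotypes did not overlap before resection, and overlapped after regeneration through HIRA KO library 1 and control library 3. The differences were -0.25 ± 0.106 (SE, adjusted p = 0.331) before and -0.37 ± 0.106 (SE, adjusted p = 0.104) after. Scap, the escort of SREBP2 (chr9:110333288-110384950), read 156, 157, 144 and 125 CPM in the control libraries and 64.3, 65.2, 110 and 122 CPM in the HIRA KO libraries before resection. It read 115, 93.6, 77.9 and 59.3 CPM in the control libraries and 34.1, 46.6, 51.2 and 62.3 CPM in the HIRA KO libraries after regeneration. HIRA KO libraries 1 and 2 were the lowest before resection, and all 4 were below control. The differences were -0.69 ± 0.236 (SE, adjusted p = 0.252) before and -0.83 ± 0.237 (SE, adjusted p = 0.105) after, and the fall over time in HIRA KO was -0.89 ± 0.237 (SE, adjusted p = 0.0223), called in 4 of 8 fits that leave out 1 library.

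The products of the 2 INSIG genes retain SCAP and SREBP2. Between HIRA KO and control their fold changes had opposite signs before resection and were both negative after regeneration. None of these was called, and no test compared the 2 genes. Insig1 (chr5:28071363-28078662) read 381, 355, 602 and 438 CPM in the control libraries and 574, 835, 633 and 498 CPM in the HIRA KO libraries before resection. It read 483, 408, 337 and 295 CPM in the control libraries and 278, 221, 374 and 196 CPM in the HIRA KO libraries after regeneration. Most other members were low in HIRA KO libraries 1 and 2 before resection, though Lss, Ebp and Soat2 were above the control mean in both. Insig1 stood at 129%, 188%, 143% and 112% of the control mean in HIRA KO libraries 1 to 4, and library 1 lay within the control range. The difference was 0.52 ± 0.225 (SE, adjusted p = 0.342) before and -0.51 ± 0.225 (SE, adjusted p = 0.275) after, and its fall over time in HIRA KO was -1.25 ± 0.228 (SE, adjusted p = 0.00225). Its interaction, -1.03 ± 0.318 (SE, adjusted p = 0.457), had the smallest p of any member, 0.0047 unadjusted by edgeR. Without the 4 libraries that stood apart its fall in HIRA KO was -0.97 with an adjusted p of 0.0923 by edgeR. Insig2 read 191, 170, 280 and 400 CPM in the control libraries and 84.8, 123, 254 and 242 CPM in the HIRA KO libraries before resection. It read 186, 200, 295 and 243 CPM in the control libraries and 65, 58.3, 188 and 194 CPM in the HIRA KO libraries after regeneration. At each time HIRA KO libraries 1 and 2 were the lowest of the 8, and the differences were -0.56 ± 0.453 (SE, adjusted p = 0.634) before and -0.87 ± 0.455 (SE, adjusted p = 0.375) after.

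Of the genes of transport, storage and side routes, Stard4, a sterol carrier, read 147, 138, 94.4 and 101 CPM in the control libraries and 98, 115, 99.3 and 125 CPM in the HIRA KO libraries before resection. It read 69.7, 71.9, 58.8 and 53.2 CPM in the control libraries and 53.7, 52, 55 and 52.6 CPM in the HIRA KO libraries after regeneration. Genotypes overlapped at both times, and the groups did not overlap over time. Its falls were -0.92 ± 0.144 (SE, adjusted p = 8.99e-04) in control and -1.03 ± 0.145 (SE, adjusted p = 3.62e-04) in HIRA KO, each called in all 8 fits that leave out 1 library. Aacs, the acetoacetyl-CoA synthetase, read 78.5, 111, 67.9 and 189 CPM in the control libraries and 62.6, 88.7, 116 and 255 CPM in the HIRA KO libraries before resection. It read 77.2, 44.3, 33.6 and 40.9 CPM in the control libraries and 44, 41.1, 60.3 and 28.9 CPM in the HIRA KO libraries after regeneration. Library 4 was the highest of its group before resection in both genotypes. The fall in HIRA KO was -1.58 ± 0.453 (SE, adjusted p = 0.0382), called in 2 of 8 such fits, and the value in control was -1.19 ± 0.449 (SE, adjusted p = 0.119). Soat2, which makes cholesteryl esters, was called in no comparison, with 0.29 ± 0.14 (SE, adjusted p = 0.388) between HIRA KO and control before resection and -0.21 ± 0.14 (SE, adjusted p = 0.363) over time in HIRA KO.

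The mean log2(CPM + 1) over the 27 members condenses these values by library. Control libraries before resection ranged from 6.59 to 6.71, and HIRA KO libraries 1 to 4 read 6.05, 6.11, 6.73 and 6.83. After regeneration, libraries 1 to 4 of the control group read 6.26, 6.37, 5.81 and 6.2, and those of the HIRA KO group 5.42, 5.23, 5.92 and 5.67. Control library 3 was therefore below HIRA KO library 3, and the other control libraries were above all HIRA KO libraries.

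**Figure D4:**
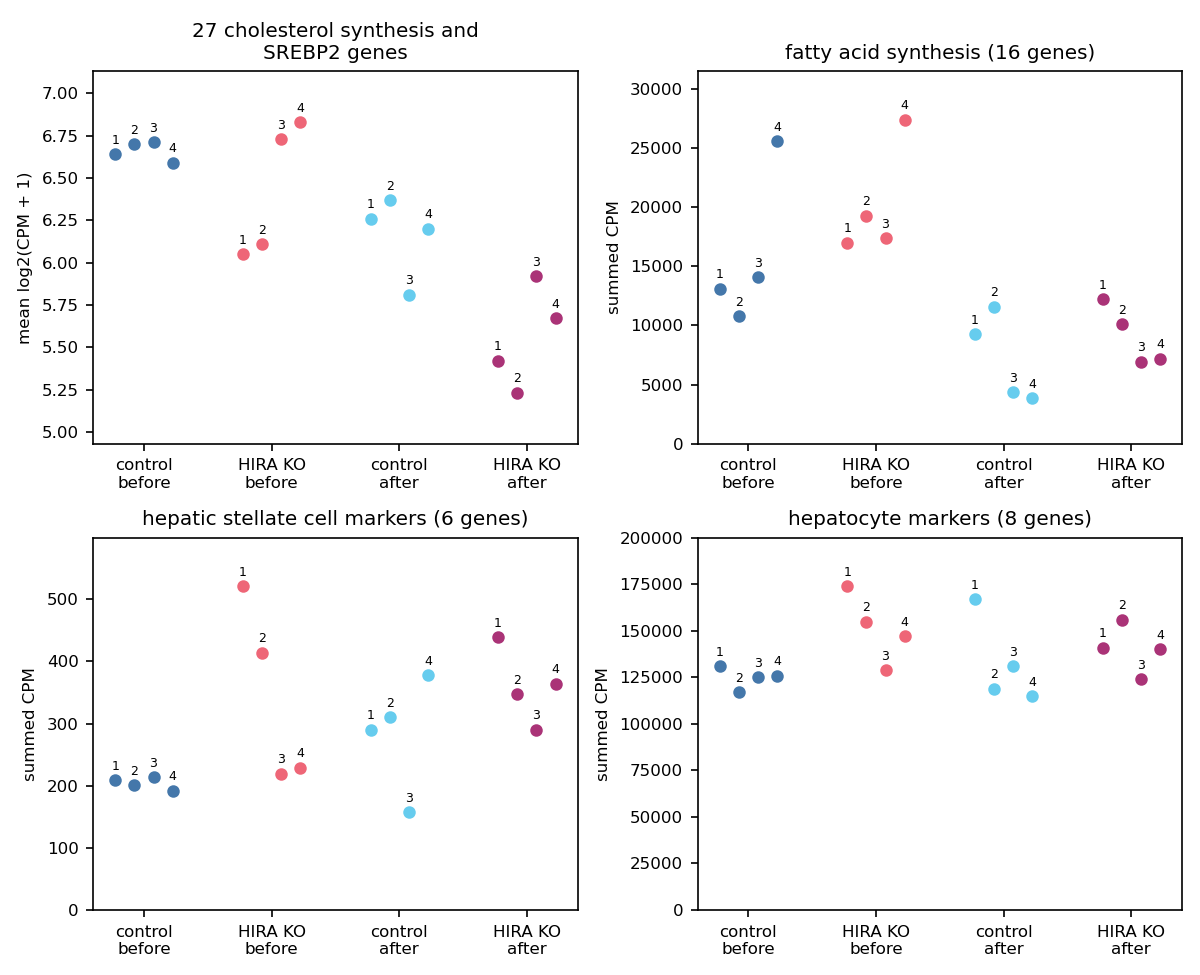
Level of the 27 members (mean log2(CPM + 1), axis not starting at 0) and of 3 other gene lists (summed CPM) in each library, numbered within its group. HIRA KO libraries 1 and 2 before resection are low for the members, at 6.05 and 6.11, and high for the stellate cell markers, at 521 and 414 CPM. The fatty acid synthesis sum in them is 17000 and 19300 CPM, of which the single gene Scd1 gives 11400 and 13300 CPM. The mean log2(CPM + 1) of that list is 8.29 and 8.34 in them, against 7.98 to 8.72 in control before resection.

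Fatty acid synthesis, driven by SREBP1c and sharing acetyl-CoA with the sterol route, was taken as the neighbouring pathway. Of its 16 genes, 0 were called between HIRA KO and control at either time. Over time 2 fell in control, Acss2 and Thrsp, and 9 fell in HIRA KO, with list medians of -0.53 and -1.05 on the log2 scale, and 0 passed the interaction test. Without the libraries that stood apart 3 fell in control and 7 in HIRA KO. The 4 of these 9 with the smallest p were Acly, the ATP citrate lyase, at -1.38 ± 0.222 (SE, adjusted p = 8.71e-04), Fads1 at -0.78 ± 0.149 (adjusted p = 0.00297), Acss2 at -1.47 ± 0.299 (adjusted p = 0.00565) and Fasn, the fatty acid synthase, at -1.54 ± 0.334 (adjusted p = 0.00803). Of 15 further genes, among them regulators of SREBP, 0 were called in control and 4 in HIRA KO over time. Rdh11 fell, -1.23 ± 0.211 (adjusted p = 0.00166), as did Erlin2, of the erlin complex of the endoplasmic reticulum, and Paqr3, a Golgi anchor of SCAP, at -0.35 and -0.83, and Npc2, a lysosomal sterol carrier, rose at 0.38. Without the libraries that stood apart 3 of these 15 genes rose and 1 fell in control, and 1 rose and 1 fell in HIRA KO.

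Other lists moved over time beside the members. All 8 mitosis genes and 5 of 6 Kupffer cell markers rose in both genotypes, where 1390 of 23018 genes were called higher in control and 1492 in HIRA KO. The other Kupffer marker, Cd74, was not called and had lower means after regeneration. They went from 84.6 to 38.5 CPM in control and from 98.4 to 68.6 CPM in HIRA KO. The Kupffer sum ran from 185 to 449 CPM in control and 259 to 331 CPM in HIRA KO before resection, and from 613 to 790 CPM and 688 to 940 CPM after regeneration. Of 10 genes of the fasting response, 3 fell in control and 4 in HIRA KO, among them Pck1 and G6pc, both of gluconeogenesis, in each. Of 14 clock genes 9 fell in control and 1, Nr1d1, in HIRA KO, and the interaction test called 0 of them. Ciart, a clock repressor, was the 1 gene of these lists called between HIRA KO and control, higher after regeneration at 4.76 ± 0.772 (adjusted p = 0.0383). Without the libraries that stood apart, 10 clock genes fell in control and 2 in HIRA KO, and 5 and 4 genes of the fasting response fell. In that fit 5 Kupffer markers rose in each genotype, Cd74 was called lower in control, and 8 and 6 mitosis genes rose. The hepatocyte sum after regeneration was 115000 to 167000 CPM in control and 124000 to 156000 CPM in HIRA KO. Most of it was Alb, at 92400 to 134000 CPM and 97900 to 123000 CPM, so the sum says little on the other markers. Over time Apoe was called lower in control and Ttr in HIRA KO. Without the libraries that stood apart the Apoe call held and the Ttr call did not. The part of cell composition, feeding state and time of day in the member values was not tested.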

How the data were processed

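Poly-A RNA-seq was made from 16 mouse liver samples, 4 per group. Per the study's methods, the authors aligned reads to mm10 with STAR and deposited raw counts per gene made with HOMER. The submitters' processing notes name STAR, HTSeq and Cufflinks with no role. The authors also deposited FPKM values, by a tool not given in the sources used here, and an empty FPKM cell was read as 0 for genes with a value elsewhere.

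Groups came from the labels, and count columns were matched to a group by genotype and time in their names. Genes with at least 10 reads in total were scaled by TMM and tested in 1 fit of 4 group means with edgeR 4.0.16 (robust quasi-likelihood, R 4.3.3), and p-values were adjusted by Benjamini-Hochberg over 23018 genes with a threshold of 0.05. SE is the absolute log2 fold change over the root of F. CPM used TMM-scaled library sizes. Exact permutation tests of mean log2(CPM + 1) were two-sided. The design took tissue before and after from the same mice, a pairing that could not be used here since no label ties a count column to a mouse.

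Alternatives were DESeq2 1.42.0, its size factors in edgeR, no filter, filterByExpr, no robust estimation, the compared groups alone, limma 3.58.1 on log2(FPKM + 1), leaving out each library, and, chosen after seeing the data, leaving out the 4 libraries that stood apart. The edgeR step was run on simulated data with the same spread for all genes and no division within groups. The HIRA KO groups here were divided, so that run says nothing on this setting. Members and lists were chosen with earlier results of these data known. Values per library are given for members called in any comparison, the 3 members with the smallest p in each, and Srebf2, Scap, Insig1, Insig2, Sqle, Idi1, Hmgcs1 and Ggps1. Genes of other lists are mostly named where called, up to 4 per list and comparison by p, and not every called gene is named. Cd74, Lyve1, Clec4g, Scd1 and the hepatocyte markers are named as well. Gene positions are from GENCODE M21, in which 26 of 27 member IDs matched, on GRCm38. No library pair within a group agreed within sampling noise, with a chi-square per degree of freedom of 12.4 or more.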

Additional observations from a re-analysis of the deposited data

Results flagged for a closer look

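In each member and group the library farthest from the other 3 was examined by Dixon's test, 108 groups in all, and 3 were flagged, where chance flags about 1 in 20 groups. Pmvk in control library 1 before resection stood at 58.5 CPM, with the next at 52.6 CPM. Fdft1 in control library 3 after regeneration stood at 79.3 CPM, with the next at 115 CPM. Nsdhl in control library 3 before resection stood at 116 CPM, with the next at 89.9 CPM.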

How the results depend on the processing

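Between HIRA KO and control before resection, and in the interaction, 0 members were called in each alternative. After regeneration, the count of 1 became 0 with DESeq2 size factors in edgeR, without a filter, without robust estimation, with the compared groups alone and without the 4 libraries that stood apart, and 6 with DESeq2, and ranged from 0 to 1 when each library was left out. Over time in control, the count of 4 became 9 with DESeq2, 8 with the compared groups alone and 9 without the libraries that stood apart. Over time in HIRA KO, the count of 14 became 6 with the compared groups alone and 21 with DESeq2, and it ranged from 7 to 16 when each library was left out, 7 without HIRA KO library 3 or 4 before resection or library 2 after regeneration, and 8 without library 1 after regeneration. The cause of these changes in count was not tested. For the counts over time, shares over all genes are given above only for the main fit and without the libraries that stood apart. Between HIRA KO and control after regeneration, DESeq2 called 2.73% of genes lower and edgeR 0.291%. Member counts by the 2 tools are therefore not directly comparable. Among values of called members under the alternatives, 235 kept their call, 69 lost it and 0 changed sign. Among uncalled members 64 values changed sign. No paired analysis was possible because the number in the count columns is in no label, so columns could not be tied to mice, and for the same reason the deletion approach could not be a term. With 4 libraries against 4, an exact permutation p cannot go below 0.0286.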

Other observations

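Genes that use or remove sterols and isoprenoids moved over time in part. Abcg1, a sterol exporter and LXR target, rose by 0.9 ± 0.186 on the log2 scale in control (SE, adjusted p = 0.00513 by edgeR) and by 1.28 ± 0.187 in HIRA KO (adjusted p = 5e-04). Mylip, another LXR target, fell in both, at -0.97 ± 0.22 and -0.7 ± 0.219. In the list of 12 genes of bile acid synthesis and cholesterol export, Cyp27a1, the sterol 27-hydroxylase, fell in both genotypes, at -0.83 ± 0.225 and -1.09 ± 0.226, and Soat1, which makes cholesteryl esters outside hepatocytes too, rose in both, at 0.86 and 0.97. Slc27a5 was called lower in control and Mttp in HIRA KO. Of 12 genes that use isoprenoids outside the sterol route, Pdss1 rose in control at 0.99, and Rabggta and Icmt fell in HIRA KO at -0.43 and -0.52. Without the 4 libraries that stood apart, 1 gene of the LXR list was higher in either genotype, with 1 lower call for control liver and 3 for HIRA KO, the bile acid list had 1 higher and 3 lower calls in each, and the isoprenoid list 1 higher call in control and 2 lower calls in HIRA KO.

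Srebf1, which encodes SREBP1, is given here after its values were seen. It stood at 281, 255, 268 and 170 CPM in control and 847, 833, 249 and 239 CPM in HIRA KO after regeneration, so that libraries 1 and 2 were above all others at that time. It was not called in any comparison.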
